A study of Mus musculus with 6 samples.

Results

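Cohesin subunit transcripts were compared between libraries labelled WT and libraries labelled Hnrnpl-null, whose cells the labels name as oocytes. The 9 genes were chosen by name. They are the meiosis-specific subunits Smc1b, Rec8, Stag3 and Rad21l, and their general paralogs or partners Smc1a, Smc3, Rad21, Stag1 and Stag2. All 9 were found among the 25239 genes of the count table, and all 9 were among the 14849 genes that passed the filter on low counts. The data are 6 RNA-seq libraries from C57BL/6 mice at E18.5, with 3 libraries per genotype. CKO stands in the titles of the Hnrnpl-null group. The labels give no allele, no Cre driver and no agent, so the cells in which Hnrnpl was removed are not known here. The name of the deposited table holds the word stra8, a gene switched on at meiotic entry, without saying what it marks. Whether each library is its own animal is not stated either, and the p-values therefore reflect library-to-library spread that could be purely technical.

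Cohesin is a ring that holds sister chromatids together from DNA replication until they part. Its core is a pair of SMC proteins closed by a kleisin and bound by a STAG protein. Germ cells entering meiosis add meiosis-specific versions: Smc1b replaces Smc1a, Rec8 or Rad21l replaces the kleisin Rad21, and Stag3 replaces Stag1 or Stag2, while Smc3 serves both kinds of ring. In mouse oocytes meiotic cohesin is laid down before birth, forms the axis on which homologous chromosomes synapse, and is needed to keep chromosomes joined through the long arrest that follows.

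Total counts were 8949781 to 22401419 per library, and the pre-ribosomal RNA Rn45s took 18.6% to 86.1% of them. The 2 libraries richest in it, WT replicate 1 (83.0%) and Hnrnpl-null replicate 3 (86.1%), kept 3818414 and 1757572 counts for all other genes, against 5727264 to 10980179 in the others. Counts from 1 to 20 were even in 93.4% to 98.4% of cases per library, so each read pair seems to have entered as 2 counts. Hnrnpl itself did not separate the groups, at 171, 169 and 145 CPM (counts scaled to the TMM-adjusted library size) in WT and 166, 172 and 213 CPM in Hnrnpl-null, so its summed count does not check the labels. The labels name the cells as oocytes, yet the listed somatic genes of pregranulosa cells and stroma were plentiful. Their 11 genes summed to 800 to 838 CPM in WT and 787 to 808 CPM in Hnrnpl-null, with 0 called by any of edgeR, DESeq2 and limma-voom, and 1 at an unadjusted edgeR p below 0.05. The 12 germ cell genes summed to 248 to 282 CPM in WT and 169 to 200 CPM in Hnrnpl-null. General subunits are used by every dividing cell of the ovary, so their counts come from germ cells and somatic cells together.

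Transcripts of the meiosis-specific subunits were lower in the Hnrnpl-null group, while none of the general subunits was called lower. Of the 4 meiosis-specific genes, Smc1b, Rec8 and Stag3 fell and Rad21l was not called (edgeR quasi-likelihood test, Benjamini-Hochberg adjusted p below 0.05 over all tested genes), where 1.79% of all tested genes were called lower. Of the 5 general genes, Rad21 rose and the other 4 were not called, where 2.67% of all tested genes were called higher and 4.46% in either direction. The median log2 fold change was -1.38 over the 4 meiosis-specific genes and 0.13 over the 5 general genes, against -0.01 over all tested genes. Over all genes 266 were called lower and 397 higher, and 132 and 124 with total counts outside Rn45s as the only scaling, so the balance of directions over all genes depends on scaling. All 4 meiosis-specific genes had groups that did not overlap, a pattern shown in the lower direction by 13.2% of tested genes. In bulk RNA of this kind, fewer germ cells and less RNA per germ cell cannot be told apart.

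Rec8, the meiotic kleisin whose cleavage releases chromosomes at the meiotic divisions, showed the largest estimated fall of the 9. It stood at 10.4, 9.19 and 10.05 CPM in the WT libraries (replicates 1 to 3, as in all such lists) and at 1.35, 2.81 and 1.87 CPM in Hnrnpl-null. The 3 WT libraries lay close together, and every Hnrnpl-null library was far below the lowest of them. The log2 fold change was -2.26 ± 0.32 (SE), or 20.9% of WT with a 95% interval of 13.0% to 33.8% (edgeR adjusted p = 0.0011). That interval overlapped those of Smc1b and Rad21l. The ratios of Smc1b to Rec8 and of Rec8 to Rad21l, taken within each library, did not separate the groups. The value in Hnrnpl-null replicate 3 rests on 6 counts, or 3 read pairs, whose counting interval runs from 0.386 to 5.47 CPM. Such intervals cover counting error only. Without that library the log2 fold change was -2.23.

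Smc1b, the SMC subunit of meiotic rings, was the meiosis-specific member with the highest mean level per length in WT. It stood at 54.7, 42.2 and 46.0 CPM in WT and at 16.5, 13.7 and 21.8 CPM in Hnrnpl-null. The groups were well apart, and the highest value of each group came from a library rich in Rn45s. The log2 fold change was -1.51 ± 0.17, or 35.2% of WT with an interval of 27.2% to 45.6% (edgeR adjusted p = 1.8e-04).

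Stag3, the meiotic STAG subunit, fell less steeply. It stood at 42.9, 37.2 and 39.8 CPM in WT and at 22.8, 22.1 and 12.5 CPM in Hnrnpl-null. Hnrnpl-null replicates 1 and 2 were close to each other, and replicate 3 lay below both. The log2 fold change was -0.997 ± 0.18, or 50.1% of WT with an interval of 38.2% to 65.7% (edgeR adjusted p = 0.0069). Leaving out both Rn45s-rich libraries gave -0.77 (edgeR adjusted p = 0.0049).

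Rad21l, a meiotic kleisin of early prophase, had the lowest mean level per length of the 9 in WT and was not called. It stood at 6.58, 3.89 and 6.47 CPM in WT and at 2.19, 3.23 and 0.624 CPM in Hnrnpl-null. The groups did not overlap, but WT replicate 2 and Hnrnpl-null replicate 2 were near each other. The lowest value is 2 counts, or 1 read pair, with a counting interval of 0.0158 to 3.48 CPM. The log2 fold change was -1.25 ± 0.42, or 41.9% of WT with a wide interval of 22.4% to 78.6% (edgeR adjusted p = 0.12). Its unadjusted edgeR p was 0.010, and 8.53% of all tested genes were lower with an unadjusted p below 0.05. It passed only when no filter on low counts was applied (edgeR adjusted p = 0.037).

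**Figure D1:**
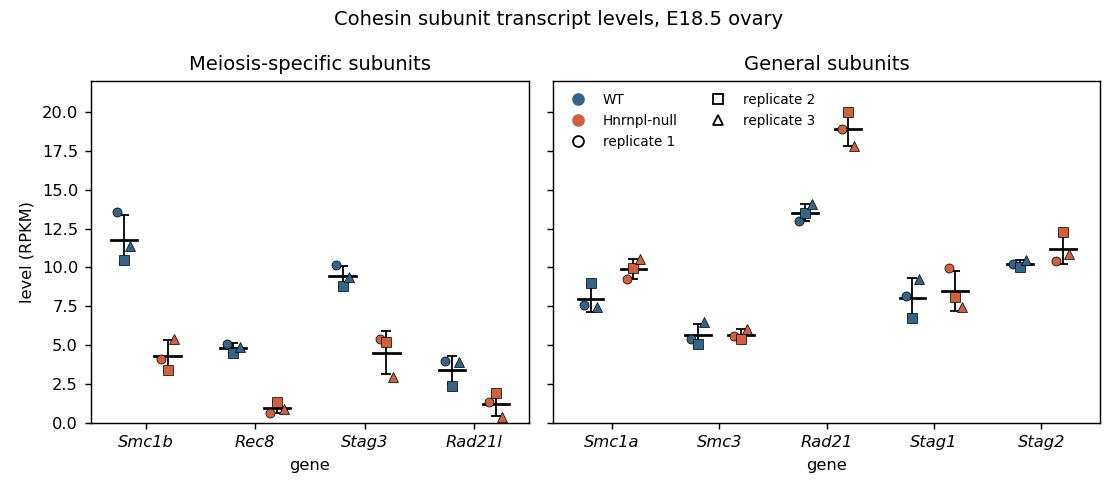
Level of each cohesin subunit in RPKM (CPM per kilobase of exon, vertical axis) in the 3 WT and 3 Hnrnpl-null libraries, with the mean and SD. The 4 meiosis-specific genes on the left are lower in every Hnrnpl-null library, while among the general genes on the right only Rad21 and Smc1a have groups that do not overlap, both higher in Hnrnpl-null.

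Among the general subunits, Rad21, the kleisin of mitotic cohesin, was higher in each Hnrnpl-null library. It stood at 46.8, 48.6 and 50.8 CPM in WT and at 68.2, 72.1 and 64.3 CPM in Hnrnpl-null. The replicates of each group lay close together, and the groups did not overlap. The log2 fold change was 0.49 ± 0.11, or 140% of WT with an interval of 119% to 165% (edgeR adjusted p = 0.025). The rise kept its direction when 1 library was left out (0.44 to 0.53), but 5 of the 6 omissions ended the call (edgeR adjusted p of 0.064 to 0.13), the exception being Hnrnpl-null replicate 3. It was also lost with total counts outside Rn45s as the only scaling, at 0.41 (edgeR adjusted p = 0.60).

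Smc1a, the SMC subunit that Smc1b replaces, stood at 30.0, 35.7 and 29.5 CPM in WT and at 36.7, 39.6 and 41.8 CPM in Hnrnpl-null. Its groups did not overlap, by a narrow margin, and it was not called (ratio 1.23, interval 1.01 to 1.497, edgeR adjusted p = 0.24). Its unadjusted edgeR p was 0.039, and 9.97% of all tested genes were higher with an unadjusted p below 0.05. Among all tested genes 12.4% had groups apart in the higher direction.

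Smc3, the partner of either SMC1 protein, showed no detectable difference. It stood at 26.0, 24.7 and 31.4 CPM in WT and at 27.2, 26.1 and 29.3 CPM in Hnrnpl-null. All 3 Hnrnpl-null values lay within the WT range, and the ratio was 1.0 with an interval of 0.806 to 1.24. For the summed count, the interval excludes a fall as large as that of Smc1b, Rec8 or Stag3. That count joins germ cells and somatic cells, so the level of Smc3 in germ cells alone was not tested.

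Stag1 and Stag2, the STAG subunits of mitotic cohesin, were not called either. Stag1 stood at 51.0, 42.3 and 57.8 CPM in WT and at 62.2, 50.8 and 46.5 CPM in Hnrnpl-null, with overlapping groups (ratio 1.07, interval 0.856 to 1.32). Stag2 stood at 65.5, 64.6 and 67.3 CPM in WT and at 66.8, 79.0 and 69.9 CPM in Hnrnpl-null, also overlapping (ratio 1.09, interval 0.926 to 1.29). Both intervals exclude, for the summed count, a change of the size seen in any of the 3 meiosis-specific genes that fell. Their levels in germ cells alone were not tested either.

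**Figure D2:**
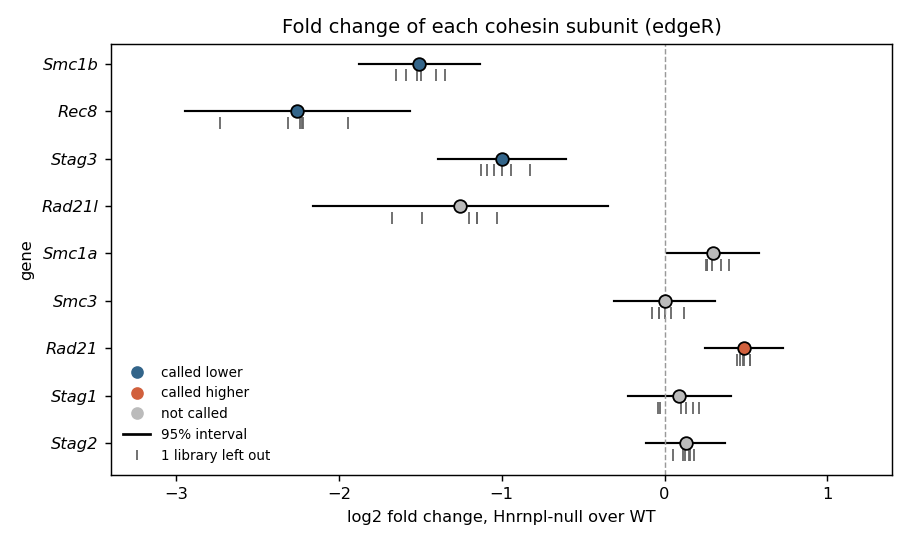
Log2 fold change of each subunit, Hnrnpl-null over WT (horizontal axis), with its 95% interval, and below each the 6 values obtained with 1 library left out. Smc1b, Rec8 and Stag3 lie well to the left of 0 under every omission, Rad21l has a wide interval, and the general subunits lie between 0.00 and 0.49.

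Because levels per length can be set side by side within a library, the makeup of each pair or trio of paralogs was followed without any scaling between libraries. In the libraries labelled WT Smc1b supplied most SMC1 transcripts, and in those labelled Hnrnpl-null Smc1a did. Smc1b made up 64.2%, 53.7% and 60.5% of SMC1 transcripts in WT and 30.6%, 25.4% and 33.9% in Hnrnpl-null, with means of 59.5% ± 5.30 and 30.0% ± 4.29 (SD, n = 3 each). The groups were far apart, and the difference of -29.5 percentage points stayed between -32.3 and -27.1 when 1 library was left out.

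Among kleisin transcripts the meiotic share was also lower in every Hnrnpl-null library. Rec8 and Rad21l together made up 41.0%, 33.6% and 38.4% in WT and 9.45%, 14.2% and 6.73% in Hnrnpl-null, with means of 37.7% ± 3.76 and 10.1% ± 3.79 (SD, n = 3 each). Rec8 alone went from 22.1% ± 0.80 to 4.59% ± 1.38 and Rad21l from 15.5% ± 3.48 to 5.55% ± 3.26. Rad21 filled the rest, at 62.3% ± 3.76 in WT and 89.9% ± 3.79 in Hnrnpl-null.

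Stag3 made up 35.6%, 34.3% and 32.3% of STAG transcripts in WT and 21.0%, 20.4% and 13.9% in Hnrnpl-null, with means of 34.1% ± 1.66 and 18.4% ± 3.93 (SD, n = 3 each). Every Hnrnpl-null library was below every WT library. Stag2 had the largest share in every library of both groups, at 37.0% ± 1.95 in WT and 46.5% ± 5.54 in Hnrnpl-null. For each of the 3 meiotic shares the exact permutation p (two-sided) was 0.10, the smallest that 3 libraries against 3 allow, and 0.18 after adjustment over the 11 within-library measures.

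**Figure D3:**
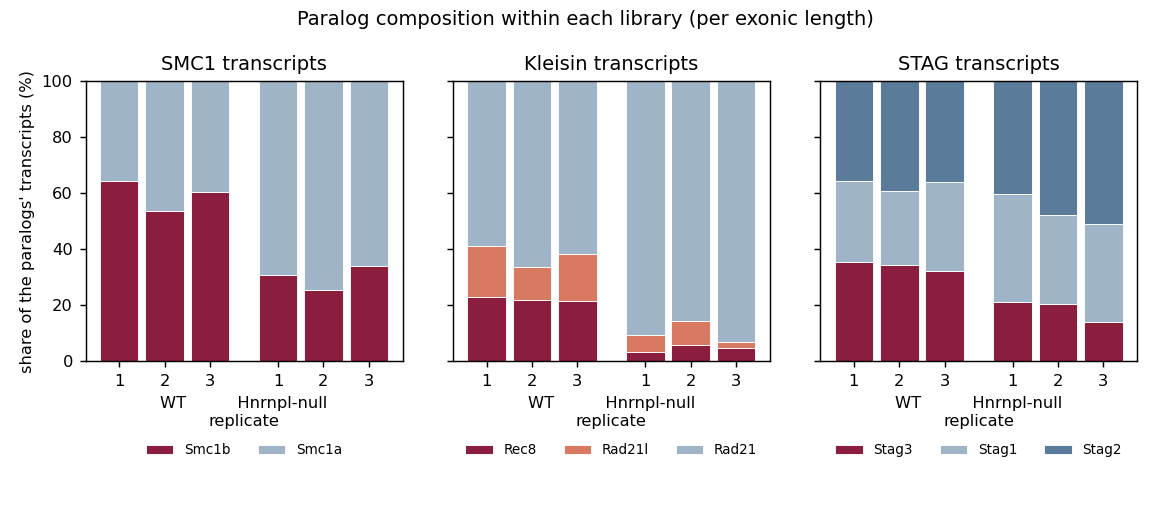
Share of each paralog in the SMC1, kleisin and STAG transcripts of a library (vertical axis, percent of the summed levels per exonic length), for the 6 libraries. The meiotic shares at the base of the bars are smaller in all 3 Hnrnpl-null libraries, with Smc1b at 25.4% to 33.9% against 53.7% to 64.2% in WT.

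The order of the 9 genes by level per length also differed. In WT, Rad21 came first at 13.5 RPKM, followed by Smc1b at 11.8, Stag2 at 10.2, Stag3 at 9.45, Stag1 at 8.05 and Smc1a at 7.997 RPKM. Each of these except Smc1a overlapped the next gene in range, so the order of neighbours within this run was not resolved. Rad21 nevertheless lay wholly above Stag2 and the genes after it, and Smc1b wholly above Stag3, Stag1 and Smc1a. Smc3 at 5.64, Rec8 at 4.81 and Rad21l at 3.40 RPKM followed, each apart from the gene before it. In Hnrnpl-null, Rad21 at 18.9 RPKM was apart from all others, and Stag2 (11.2), Smc1a (9.92) and Stag1 (8.50) formed an overlapping run. Smc3, Stag3 and Smc1b overlapped next at 5.68, 4.52 and 4.30 RPKM. Rad21l and Rec8 came last, overlapping each other at 1.21 and 0.979 RPKM.

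No shift in the proportions of the 4 meiosis-specific genes to one another was shown. Within-library log2 ratios were compared for 16 pairs, 6 among meiosis-specific and 10 among general genes. Only the ratio of Rec8 to Stag3 separated the groups among the 6, at -0.997, -0.97 and -0.94 in WT and -3.02, -1.92 and -1.60 in Hnrnpl-null. The WT ratios were almost the same in the 3 libraries, and the Hnrnpl-null ratios were lower and more spread (exact permutation p = 0.10, two-sided, 0.53 adjusted over the 16 pairs). Among the 10 general pairs, 2 separated the groups, both through Rad21. The log2 ratio of Smc3 to Rad21 went from -1.27 ± 0.14 to -1.73 ± 0.17, and that of Rad21 to Stag2 from 0.40 ± 0.04 to 0.76 ± 0.09 (SD, n = 3 each, exact permutation p = 0.10 and 0.53 adjusted for both). With 3 libraries against 3, a ratio unrelated to genotype separates the groups with probability 0.10. The separations among the 16 pairs are therefore not read as a difference in proportions. These pairs were added after the values of the members were seen.

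Ddx4 and Dazl, RNA-binding proteins found throughout the germ cell lineage of this stage, give a yardstick for germ cell RNA in the same libraries. Other tested genes of the germ cell list spread widely around them by edgeR. They ran from 15.1% of WT (Gtsf1) and 41.9% (Sohlh2) through 51.6% (Mael) and 71.5% (Rbm46) to 91.3% (Kit). Ratios to another germ cell gene could therefore differ from those given here. Ddx4 fell to 53.4% of WT (interval 37.7% to 75.6%, edgeR adjusted p = 0.044) and Dazl to 56.2% (interval 44.3% to 71.3%, edgeR adjusted p = 0.0096). Leaving out any 1 WT library or Hnrnpl-null replicate 2 ended the call of Ddx4. That of Dazl ended on leaving out WT replicate 3, Hnrnpl-null replicate 1 or Hnrnpl-null replicate 2. In Hnrnpl-null replicate 3 Ddx4 rests on 20 counts and Dazl on 138.

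Rec8 was lower relative to either yardstick. The log2 ratio of Rec8 to Dazl was -1.85, -2.05 and -2.14 in WT and -3.87, -2.79 and -3.88 in Hnrnpl-null. The log2 ratio of Rec8 to Ddx4 was -0.51, -0.77 and -0.88 in WT and -3.03, -1.64 and -1.19 in Hnrnpl-null. Neither pair of groups overlapped, with differences of -1.50 and -1.24 (exact permutation p = 0.10 each, two-sided, 0.18 adjusted). The share of all genes whose ratio to Dazl or Ddx4 separates the groups was not computed. The difference to Ddx4 was -0.70 without Hnrnpl-null replicate 1.

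Smc1b was lower relative to Dazl, at -0.44, -0.82 and -0.92 in WT and -1.25, -1.49 and -1.42 in Hnrnpl-null. The groups were apart, with a difference of -0.66 (exact permutation p = 0.10, two-sided, 0.18 adjusted). Relative to Ddx4 it was 0.91, 0.46 and 0.34 in WT and -0.41, -0.34 and 1.28 in Hnrnpl-null. There the groups overlapped through Hnrnpl-null replicate 3, and the difference was -0.39 with all libraries (exact permutation p = 0.60, two-sided, 0.73 adjusted). It was -0.94 without that library, -0.22 without WT replicate 1, -0.099 without Hnrnpl-null replicate 1 and -0.13 without Hnrnpl-null replicate 2, so its size rests on single libraries.

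Stag3 was not shown to differ relative to either yardstick. Its log2 ratio to Ddx4 was 0.25 ± 0.22 in WT and 0.23 ± 0.22 in Hnrnpl-null, and that to Dazl was -1.04 ± 0.17 and -1.33 ± 0.82 (SD, n = 3 each). Both overlapped (exact permutation p = 0.90 each, two-sided), and the difference to Dazl went from -0.29 to 0.18 without Hnrnpl-null replicate 3. Rad21l overlapped as well, with differences of -0.56 to Ddx4 and -0.82 to Dazl (exact permutation p = 0.30 and 0.60, two-sided). With 1 library left out its difference to Ddx4 ran from -0.89 (without Hnrnpl-null replicate 2) to -0.33 (without Hnrnpl-null replicate 3), and that to Dazl from -1.37 to -0.03 with the same libraries left out. Leaving out both Rn45s-rich libraries gave -0.14 and 0.14.

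**Figure D4:**
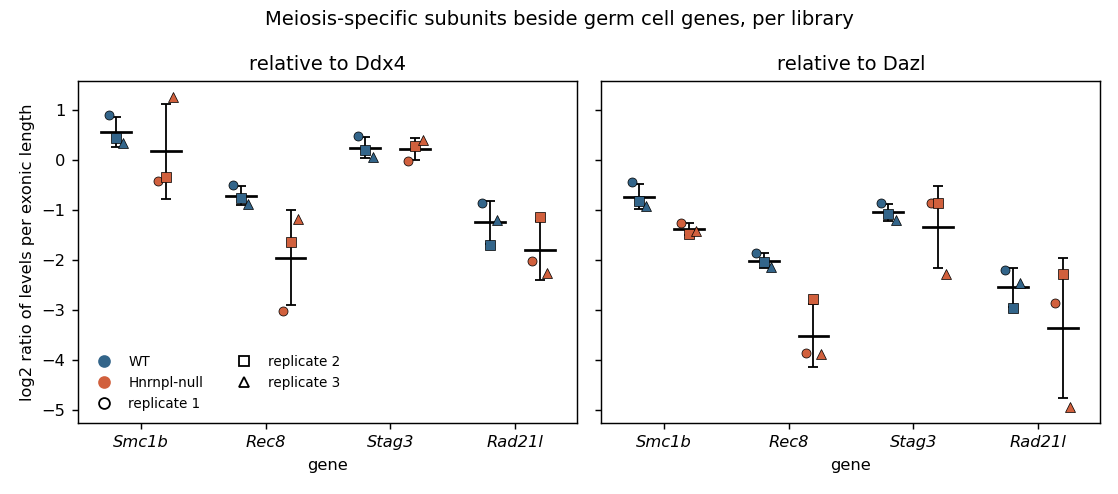
Log2 ratio of each meiosis-specific subunit to Ddx4 (left) and to Dazl (right), per exonic length and within each library (vertical axis), with mean and SD for WT and Hnrnpl-null. Rec8 has separate groups in both panels, Smc1b only in the right one, and Stag3 and Rad21l in neither.

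The promoters of the 4 meiosis-specific genes are shown because 3 of them fell together and Rad21l had separate groups. Sequences are those of RefSeq (GRCm38.p6, the build mm10), matched by symbol for 7 of the 9 genes, all but Rad21 and Stag2. Each run gives 250 bases before the start and the first 10 of the transcript, 5′ to 3′ on the gene's strand, with searched motifs in capitals.
Smc1b, chr15:85131948-85132207 (minus strand): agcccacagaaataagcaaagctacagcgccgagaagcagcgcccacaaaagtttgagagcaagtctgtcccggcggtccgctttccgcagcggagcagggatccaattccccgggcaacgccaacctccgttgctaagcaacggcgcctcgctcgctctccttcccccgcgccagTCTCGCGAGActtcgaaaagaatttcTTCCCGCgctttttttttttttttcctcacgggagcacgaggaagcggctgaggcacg
Stag3, chr5:138280259-138280518 (plus strand): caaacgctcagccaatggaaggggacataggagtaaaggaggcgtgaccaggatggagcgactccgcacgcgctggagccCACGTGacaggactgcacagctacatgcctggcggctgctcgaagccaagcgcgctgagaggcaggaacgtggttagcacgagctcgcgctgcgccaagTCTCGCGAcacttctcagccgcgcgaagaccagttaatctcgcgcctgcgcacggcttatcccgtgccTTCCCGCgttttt
Rec8, chr14:55617916-55618175 (plus strand): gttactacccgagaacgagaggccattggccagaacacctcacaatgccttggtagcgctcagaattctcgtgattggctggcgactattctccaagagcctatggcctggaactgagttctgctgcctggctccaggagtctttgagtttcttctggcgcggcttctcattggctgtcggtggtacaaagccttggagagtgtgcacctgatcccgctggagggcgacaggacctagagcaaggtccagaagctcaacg
Rad21l, chr2:151668524-151668783 (minus strand): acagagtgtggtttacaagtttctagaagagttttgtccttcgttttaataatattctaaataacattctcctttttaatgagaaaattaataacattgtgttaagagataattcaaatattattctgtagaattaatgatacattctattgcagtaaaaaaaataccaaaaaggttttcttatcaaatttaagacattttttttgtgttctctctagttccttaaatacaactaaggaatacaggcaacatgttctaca

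Windows from 250 bases before to 50 after the start were searched on both strands for 4 motifs, chosen with these promoters in view. They were TTCCCGC (the core of many E2F sites), CACGTG (the E-box), TCTCGCGA (a near-palindrome of CpG-rich promoters) and CNCCTCAG (reported at promoters bound by STRA8, the inducer of meiotic entry). Among 32851 such windows, 4.60%, 7.15%, 0.995% and 7.94% held them. Smc1b and Stag3 each held TTCCCGC and TCTCGCGA. In Smc1b TTCCCGC began 48 bases before the start, and TCTCGCGA began 74 bases before it and matched again on the other strand at 72, the matches overlapping. In Stag3 TTCCCGC began 3 bases and TCTCGCGA 71 bases before the start, with CACGTG 170 bases before it. Rec8 and Rad21l held none of the 4 in this window. TTCCCGC was also in the windows of the general genes Smc1a (39 bases after the start) and Stag1 (16 bases before it), so that motif was not confined to genes that fell. The windows of Smc1b, Stag3 and Rec8 were 60%, 61.3% and 58.3% G and C, and that of Rad21l was 29.0%.

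Smc1b lies on chromosome 15 (85064689 to 85131957, mm10, minus strand) and starts 141 bases from Ribc2, which runs the other way. Ribc2 had 6, 14 and 4 counts in WT and 0, 14 and 0 in Hnrnpl-null, too few to be tested. Smc1a lies on chromosome X (152016428 to 152061973, plus strand) and starts 133 bases from Ribc1, the paralog of Ribc2, in the same head-to-head layout. Ribc1 was not called (log2 fold change -0.74, edgeR adjusted p = 0.54). Stag3 on chromosome 5 (138280509 to 138312393) starts 572 bases from Gpc2, and Rec8 on chromosome 14 (55618166 to 55625395) lies next to Ipo4. Gpc2 and Ipo4 were not called, at -0.20 and -0.27 on the log2 scale (edgeR adjusted p = 0.65 and 0.38), and no exon of these 4 neighbours overlaps an exon of its member. Rad21l lies on chromosome 2 (151645404 to 151668533).

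Other proteins that act with cohesin were read from lists chosen by role. The axis of meiotic chromosomes is built on cohesin. Of 10 axis and synaptonemal complex genes 9 were tested, of which 5 fell, 0 rose and 4 were not called, with a median log2 fold change of -0.94. Sycp3, an axial element protein, stood at 18.9, 13.8 and 22.6 CPM in WT and at 5.05, 3.65 and 7.49 CPM in Hnrnpl-null. Its groups were separate, and it reached 26.8% of WT (edgeR adjusted p = 0.0012), between the 20.9% of Rec8 and the 35.2% of Smc1b. Syce1 (a central element protein), Hormad1 (an axis checkpoint protein), Sycp2 (the partner of Sycp3) and Sycp1 (the transverse filament) fell to 38.2%, 41.9%, 48.9% and 52.2% of WT. Sycp3 kept its call in each of the 6 fits with 1 library left out (edgeR adjusted p of 0.00030 to 0.016). The number of the list's genes called lower was 2 to 5 in those fits, with 2 without WT replicate 2, WT replicate 3 or Hnrnpl-null replicate 2 and 3 without WT replicate 1 or Hnrnpl-null replicate 1. The calls of Smc1b, Rec8 and Stag3 also held in each of them (edgeR adjusted p of 3.6e-05 to 0.033).

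Genes listed for cohesin loading, release and acetylation, with Hdac8 and Ctcf among them, were not called. Of 10 tested, none passed in edgeR (0), DESeq2 (0) or limma-voom (0), while 2 had an unadjusted edgeR p below 0.05 (median log2 fold change -0.03). Over all tested genes, 8.53% were lower and 9.97% higher at that unadjusted threshold. With no filter on low counts edgeR called 1 lower, namely Pds5a. Nipbl, the loader, stood at 108, 89.8 and 107 CPM in WT and at 93.7, 75.6 and 56.8 CPM in Hnrnpl-null, with overlapping groups (edgeR adjusted p = 0.16). Pds5a, a regulator of cohesin release, had the smallest p of the list (edgeR adjusted p = 0.14) through 1 library. It stood at 847 CPM in WT replicate 1 against 76.3 and 90.6 CPM in WT replicates 2 and 3 and 87.4 to 102 CPM in Hnrnpl-null. Its log2 fold change was -1.85 with that library and 0.17 without it.

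In the list of cohesion protection and cleavage, 10 of 11 genes were tested, with 1 lower, 0 higher and a median of 0.13. In this list 4 genes had edgeR p-values below 0.05 before adjustment, namely Espl1 and, with higher means in Hnrnpl-null, Plk1, Ppp2r5a and Aurkb, which were not called. The shares over all tested genes were 8.53% lower and 9.97% higher before adjustment. The 1 that fell was Espl1, separase, the protease that cleaves the kleisin, at 48.9, 56.3 and 61.5 CPM in WT and 38.5, 39.6 and 30.6 CPM in Hnrnpl-null (65.9% of WT, edgeR adjusted p = 0.024). The groups were apart, but 4 omissions, of WT replicates 2 and 3 and Hnrnpl-null replicates 1 and 2, each ended the call (edgeR adjusted p from 0.060 to 0.10), as did total counts outside Rn45s as the only scaling (edgeR adjusted p = 0.25). Sgo2b had no counts in any library. Among 14 condensin and SMC5/6 genes, 1 was higher, 0 were lower and the median was -0.06 by edgeR, while DESeq2 and limma-voom each called 1 lower. Ncapd2, a condensin subunit, stood at 56.3, 54.5 and 43.1 CPM in WT and at 71.7, 80.2 and 77.4 CPM in Hnrnpl-null (149% of WT, edgeR adjusted p = 0.021). The groups were apart, and 3 omissions, of WT replicates 2 and 3 and Hnrnpl-null replicate 2, each ended the call (edgeR adjusted p from 0.072 to 0.11). That scaling ended the Ncapd2 call too (edgeR adjusted p = 0.42).

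**Figure D5:**
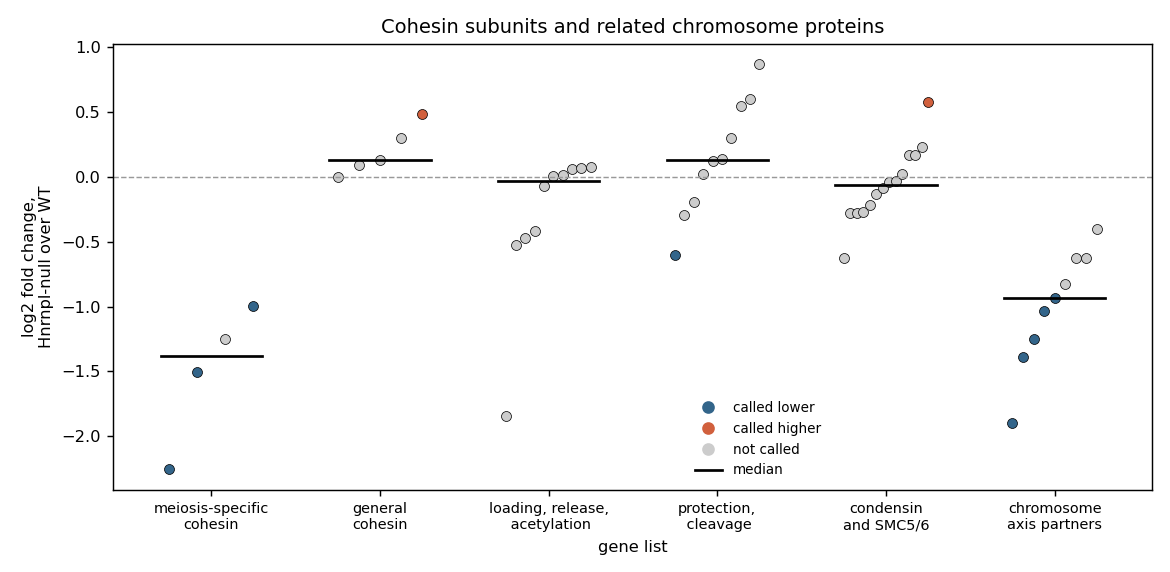
Log2 fold change, Hnrnpl-null over WT (vertical axis), of each tested gene in the cohesin sets and the 4 related lists, with the median as a bar. The meiosis-specific cohesins (median -1.38) and the axis partners (median -0.94) lie below 0, and the other lists lie around 0.

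Markers of some cell types, germ cells among them, moved with genotype, while the pregranulosa and stroma list had 0 genes called. Of the germ cell list, 11 of 12 genes were tested, with 5 lower, 0 higher and a median of -0.83, and 1 to 5 were called lower when 1 library was left out. Of 12 proliferation genes, 5 were higher and 0 lower (median 0.52), with 2 to 6 higher when 1 library was left out (2 on omitting WT replicate 1 or 2, and 3 on omitting Hnrnpl-null replicate 1 or 2) and 0 with total counts outside Rn45s as the only scaling. Their sum was 404 to 417 CPM in WT and 540 to 549 CPM in Hnrnpl-null. All 8 genes listed as markers of myeloid cells with primary granules were higher. Their sums were 3.16 to 3.81 CPM in WT and 549 to 726 CPM in Hnrnpl-null. Of the 8 only Ms4a3 and Nkg7 were at 0 in all WT libraries. Mpo, the granule's peroxidase, had 2, 12 and 8 counts in WT and 12398, 10484 and 1384 in Hnrnpl-null. Of 9 leukocyte genes tested, 4 were higher and 0 lower, with sums of 65.2 to 74.6 CPM in WT and 158 to 167 CPM in Hnrnpl-null. Of 3 erythroid genes tested, 0 were called by edgeR and 2 each by DESeq2 and limma-voom. By edgeR 2 were higher with an unadjusted p below 0.05, as were 9.97% of all tested genes. Hbb-bt and Hba-a1 were at 0 in all libraries. The part of these cells in the rise of Rad21 was not tested.

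The genes whose profile over the 6 libraries was most like the mean standardised profile of the 4 meiosis-specific subunits were Tdrd1, Phrf1, D10Wsu102e, Agtpbp1 and Dlgap4, with Pearson's r of 0.997, 0.992, 0.989, 0.988 and 0.988 among 7635 genes considered. The libraries form separate groups, so r here mostly ranks genes by how cleanly they follow genotype. Tdrd1, a Tudor protein of the piRNA pathway, fell from 59.2 ± 5.30 to 12.8 ± 3.08 CPM (SD, n = 3 each, edgeR adjusted p = 3.8e-06). Phrf1, a PHD and RING finger protein, went only from 50.6 ± 0.837 to 42.4 ± 2.30 CPM and was not called (edgeR adjusted p = 0.26), so a like profile did not mean a like size of change.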

How the data were processed

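Per the file headers, the authors deposited raw counts per gene in the layout of featureCounts, with 1 column per library and each gene's exonic length, an entry in bases of another kind than the counts. The build mm10 and the tools featureCounts 2.0.6, HISAT2 2.2.1 and STAR 2.7.11a are named, per the submitters' processing notes, without their roles. For strand setting and annotation the sources used here give nothing. Every row names a gene, and 0 columns belong to other samples.

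The test was edgeR 4.0.16, run in R 4.3.3 (filterByExpr, TMM, glmQLFit, glmQLFTest, two-sided, genotype as the only term, Benjamini-Hochberg, threshold 0.05). CPM used TMM-scaled library sizes, RPKM divided CPM by exonic kilobases, and SEs came from the F statistic. Within-library log2 ratios added 0.5 counts. On simulated counts the test called 86.6%, 46.3% and 10.6% of genes changed 4-fold, 2-fold and 1.5-fold. No library pair within a group agreed within counting noise, the smallest chi-square divided by its degrees of freedom being 5.21. Same-numbered libraries did not pair, with deviations correlated at -0.13, 0.11 and -0.08. Alternatives used DESeq2 1.42.0, limma 3.58.1, other scalings and filters, and left out libraries. Members and lists were chosen with earlier results of these data known. Named genes were the 9 members, up to 6 called genes of each list (or the one with the smallest p), near neighbours, and the 5 most similar profiles at a mean of at least 10 CPM. Nipbl and the yardsticks Ddx4 and Dazl were named beside them, Nipbl after its values were seen. Gene-level counts carry no splicing information, so none was examined.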

Additional observations from a re-analysis of the deposited data

How the results depend on the processing

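Smc1b, Rec8 and Stag3 were called lower under every alternative run except scaling by total counts alone, which leaves in the uneven Rn45s share. There they stood at -1.55, -2.23 and -0.85 on the log2 scale, Rad21 at 0.48 and Smc3 at -0.056, none of them called, and 0 meiosis-specific and 0 general genes were called. Rad21l was called only with no filter (-1.24). Rad21 lost its call at 0.41 with total counts outside Rn45s, an alternative chosen after seeing the data, and at 0.49 with the replicate number as a block (edgeR adjusted p = 0.065). In both, 0 general genes were called. The block also ended the call of Espl1 (edgeR adjusted p = 0.053). Leaving out 1 library gave 0.44 to 0.53 for Rad21 and 0 to 1 general genes called. The replicate numbers did not pair the libraries, and that block left 444 genes called, 424 of them shared with the 663 of the unblocked test.

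Genes called lower and higher numbered 425 and 640 with DESeq2, 498 and 775 with limma-voom, 465 and 757 with voom sample weights (chosen after seeing the data), 471 and 633 with no filter, 1 and 3 with total counts alone, 132 and 124 with total counts outside Rn45s, and 89 and 147 at an adjusted p below 0.01. Leaving out 1 library gave 104 to 321 lower and 145 to 532 higher.

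Some values changed sign. Several of them were near 0 with all libraries, but Pds5a (-1.85), Rad21l to Dazl (-0.82) and Stag3 to Dazl (-0.29) were not. Smc3 was at -0.0087 with DESeq2, -0.0090 with limma-voom, -0.0038 with RLE size factors, -0.018 with upper quartile scaling, -0.0097 with halved counts and -0.084 with total counts outside Rn45s. Without the 2 libraries richest in Rn45s, Smc3 was at -0.062, Stag3 to Ddx4 at 0.00035, Stag3 to Dazl at 0.28, Rad21l to Dazl at 0.14, Smc1b to Rad21l at -0.64, Stag1 to Stag2 at 0.046 and Pds5a at 0.22. With 2 counts added in place of 0.5, Smc1b to Rad21l was at -0.041. Leaving out 1 library gave -0.075 to 0.12 for Smc3, -0.043 to 0.21 for Stag1 and -2.32 to 0.17 for Pds5a. For ratios it gave -0.12 to 0.092 for Stag3 to Ddx4, -0.53 to 0.18 for Stag3 to Dazl, -0.61 to 0.76 for Smc1b to Rad21l, -0.20 to 0.064 for Smc3 to Stag1, -0.17 to 0.0013 for Smc3 to Stag2 and -0.21 to 0.052 for Stag1 to Stag2. Apart from what each alternative's construction shows, the cause was not tested. Depth limits Rec8 and Rad21l most, since 1 read pair is worth 0.624 CPM in Hnrnpl-null replicate 3.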
